A study of Mus musculus with 6 samples.

Results

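The angiopoietin-like genes *Angptl1*, *Angptl2*, *Angptl4*, *Angptl6* and *Angptl7* were followed in mouse kidney, as the rows of the count tables that carry these symbols. All 5 were found among the 24422 genes listed. The family was chosen by the counts of *Angptl7*, which were far lower in the kidneys deleted for the transferrin receptor, so the knockout and control values of its members are given as descriptions, without p-values.

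Whole kidneys of C57BL/6 mice were sequenced as poly-A RNA at postnatal day 60, with 3 libraries labelled control (genotype wild type) and 3 labelled TfR1KO;KspCre (genotype Tfr1f/f;KspCre), called knockouts here. In the second genotype, floxed exons of *Tfrc*, which encodes the transferrin receptor TfR1, are removed by a Cre recombinase under the Ksp-cadherin promoter. That promoter is active in the distal nephron, so other cells of the kidney keep the gene. Both groups ate the same iron-sufficient diet (220 ppm), and the comparison asks which transcripts differ at this age when distal tubules lack TfR1. The published study reports kidney fibrosis, kidney failure, weight loss and anemia in mice of this genotype. The part of these in the differences below was not tested.

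Angiopoietin-like (ANGPTL) proteins are secreted glycoproteins built, in most members, of a coiled-coil stretch followed by a fibrinogen-like domain. They resemble the angiopoietins but do not act through the angiopoietin receptor Tek in the same way, and several were long regarded as orphan ligands. The best known member, ANGPTL4, inhibits lipoprotein lipase, the capillary enzyme that frees fatty acids from circulating triglyceride, and is induced by PPAR nuclear receptors, by fasting and by hypoxia. ANGPTL2 is linked to inflammation and matrix remodelling through integrins, ANGPTL7 is best known from the cornea and the outflow tissue of the eye, where glucocorticoids raise it, and ANGPTL1 and ANGPTL6 have been studied as regulators of vessel growth and of energy use.

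Total counts ranged from 11501053 to 21001341 per library. Control 2 stood apart from the other 5 libraries, with 52 counts of *Xist* against 10458 to 23845 and 1451 counts of the Y-linked gene *Ddx3y* against at most 4. Sex is not in the labels, so the fold changes of the members and of the called genes are also given without control 2. Knockout 3 had the fewest counts and the largest share of the ribosomal precursor *Rn45s*, 2.59% against 0.506% to 0.745% in the other libraries. Without knockout 3 the log2 fold changes were -5.18 for *Angptl7*, -0.57 for *Angptl4*, 0.53 for *Angptl2*, -0.83 for *Angptl1* and 0.34 for *Angptl6*, and edgeR called 2 genes in all, none of them a member. *Tfrc* itself did not mark the labels, at 138.4, 167.7 and 61.9 CPM (counts per 1e6 counts of the library, scaled by TMM) in controls 1 to 3, against 214.2, 85.9 and 40.6 in knockouts 1 to 3. The tissue was kidney by its nephron markers, all 9 of which were detected. Their summed level was 16077 to 20320 CPM in controls and 3526 to 12561 in knockouts. Of the 9, edgeR called *Lrp2* and *Slc34a1* lower. The groups overlapped for the others, among them *Umod*, *Slc12a1* and *Slc12a3* of the distal nephron, and these were not called. Since RNA came from whole kidneys, fewer cells of a type and less RNA per cell cannot be told apart.

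*Angptl7* lies on chromosome 4 (147869292 to 147874569, minus strand, mm9) wholly inside *Mtor*, which encodes the growth-regulating kinase mTOR and runs on the opposite strand (147822720 to 147931792). The same arrangement held for *Angptl1* (chromosome 1, 158768693 to 158791209) inside *Ralgps2* and for *Angptl2* (chromosome 2, 33071589 to 33103237) inside *Ralgps1*. None of these 3 members shared exonic bases with the gene around it, so the overlap is intronic. *Angptl4* (chromosome 17, 33910695 to 33918520) overlapped no other annotated gene. *Angptl6* (chromosome 9, 20678253 to 20684154) shared 264 exonic bases, 16.9% of its exons, with *A230050P20Rik* on the opposite strand. The strand setting of the counting is not given in the sources used here, so reads of an overlapping gene cannot be told apart from those of the member at such places.

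The promoter of *Angptl7* is shown because this was the member with the widest difference. The window (RefSeq, GRCm38.p6, chr4:148500413-148500712, minus strand) runs from 250 bases before the annotated start to 50 after it, and capitals mark the bases from the start onward.
Angptl7: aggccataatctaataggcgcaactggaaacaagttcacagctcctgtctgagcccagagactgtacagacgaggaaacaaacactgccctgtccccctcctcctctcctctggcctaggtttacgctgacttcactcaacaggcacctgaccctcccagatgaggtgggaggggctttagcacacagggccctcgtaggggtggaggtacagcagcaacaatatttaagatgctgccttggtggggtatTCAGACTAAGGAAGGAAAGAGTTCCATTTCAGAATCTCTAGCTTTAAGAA
The core of the hypoxia response element (ACGTG or GCGTG, either strand) was not present in it, nor was a glucocorticoid receptor half-site (AGAACA, either strand). Windows were found for 4 of the 5 members, and those of *Angptl1*, *Angptl2* and *Angptl6* held neither motif. Among 32851 promoter windows of the same length, 43.8% held the first and 19.0% the second.

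*Angptl7* was lower in knockouts in every library, and its controls were widely spread. It had 88, 1650 and 797 counts in controls 1 to 3, which is 4.38, 96.9 and 47.8 CPM. In knockouts it had 27, 28 and 22 counts, or 1.32, 1.40 and 1.68 CPM. The groups did not overlap, but control 1 was near the knockouts and far below the other controls. The lowest control was 2.60-fold above the highest knockout, whereas the highest control was 22.1-fold above the lowest control. The mean was 49.7 ± 46.3 CPM in controls and 1.47 ± 0.189 in knockouts (SD, n = 3 each), with a log2 fold change of -5.08 (SE 1.06). The knockouts differed by 1.27-fold at most. Control 2, the library with Y-linked transcripts, was the highest. Control 1 also had the highest summed level of adipocyte markers among controls (562.1 CPM against 276.8 and 287.4) and of fibroblast markers (646.2 against 421.3 and 301.1), and their part in its *Angptl7* value was not tested. Without control 2 the log2 fold change was -4.17 (SE 0.94).

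**Figure D1:**
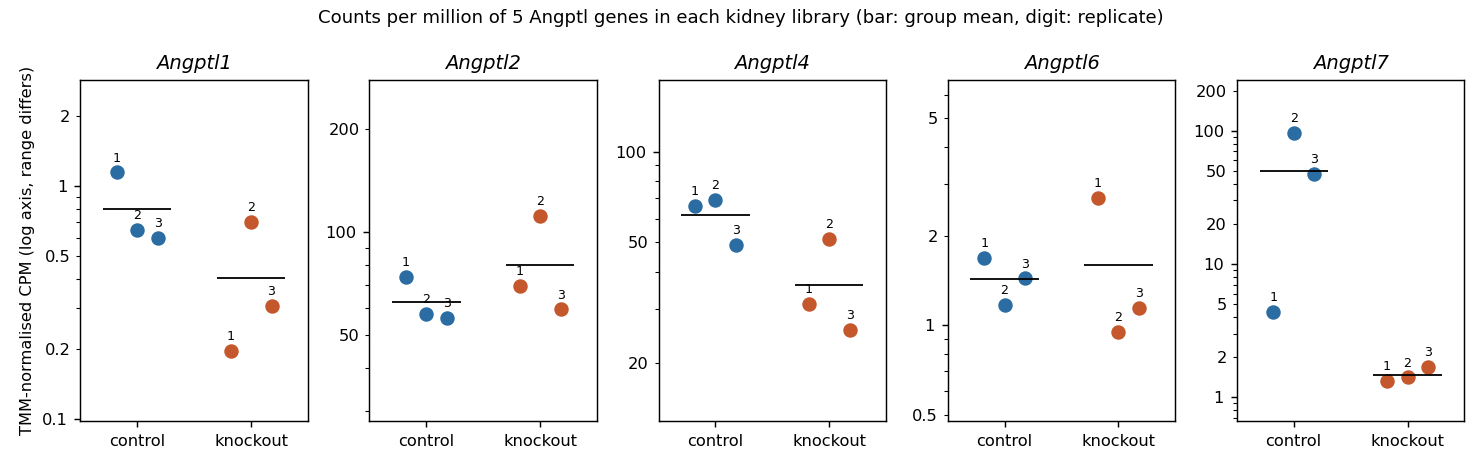
TMM-normalised CPM (log axis, with its own range in each panel) of the 5 members in controls (blue) and knockouts (orange), with the replicate number above each point and the group mean as a bar. *Angptl7* lies between 4.38 and 96.9 CPM in controls and between 1.32 and 1.68 in knockouts, whereas the groups overlap for the other 4 members.

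*Mtor*, the gene around *Angptl7*, was lower in knockouts as well. It was at 199.2, 313.04 and 163.2 CPM in controls 1 to 3 and at 105.4, 74.4 and 68.3 in knockouts 1 to 3. The groups did not overlap and the gene was called, with a log2 fold change of -1.44 (SE 0.29; edgeR's quasi-likelihood test, adjusted p 0.0316). Without control 2 it was -1.14 and not called (edgeR, adjusted p 0.118). That fit called no gene at all, and its smallest adjusted p by edgeR was also 0.118. Set against *Mtor* within each library, *Angptl7* had 2.20, 31.0 and 29.3 counts per 100 *Mtor* counts in controls 1 to 3, against 1.26, 1.89 and 2.46 in knockouts 1 to 3. On this ratio control 1 lay within the range of the knockouts, and controls 2 and 3 lay far above it. The part of *Mtor* reads in the *Angptl7* counts was not tested.

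**Figure D2:**
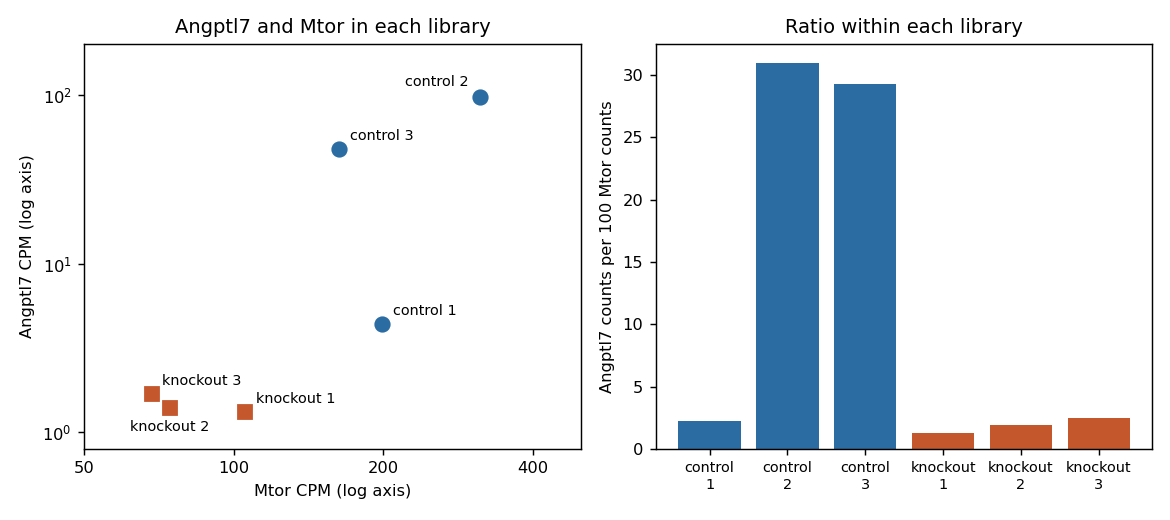
Left, *Angptl7* CPM against *Mtor* CPM (both log axes), 1 point per library (circles, controls; squares, knockouts). Right, *Angptl7* counts per 100 *Mtor* counts, where control 1 (2.20) sits with the knockouts (1.26 to 2.46) and controls 2 and 3 stand at 31.0 and 29.3.

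*Angptl4*, the lipase inhibitor, was lower on average in knockouts, with groups that touched. It was at 66.1, 69.2 and 49.0 CPM in controls 1 to 3 (1329, 1178 and 817 counts) and at 31.2, 51.3 and 25.6 CPM in knockouts 1 to 3 (636, 1024 and 335 counts). Only knockout 2 reached into the control range. The means were 61.4 ± 10.9 and 36.1 ± 13.5 CPM (SD, n = 3 each), and the log2 fold change was -0.77 (SE 0.28). It ranged from -1.11 without knockout 2 to -0.57 without knockout 3, and was -0.68 without control 2. All 8 adipocyte markers were detected, with a summed level of 276.8 to 562.1 CPM in controls and 150.3 to 866.9 in knockouts, and none was called. Knockout 3, with the lowest *Angptl4*, had the highest sum, and the part of these cells in the *Angptl4* values was not tested.

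*Angptl2*, the inflammation-linked member, overlapped between the groups, with 1 knockout above the rest. Controls 1 to 3 had 73.8, 57.5 and 56.1 CPM (1485, 979 and 935 counts), and knockouts 1 to 3 had 69.4, 111.2 and 59.4 CPM (1415, 2219 and 776 counts). Knockout 2 was above every other library, and the other knockouts lay within the control range. The log2 fold change of 0.36 (SE 0.26) was 0.0432 without knockout 2, and it was 0.29 without control 2. Knockout 2 also had the highest summed level of fibroblast markers, 3770 CPM against 983.1 and 2955 in the other knockouts and 301.1 to 646.2 in controls. The same held for the macrophage markers, at 1492 CPM against 396.6 and 517.9 in the other knockouts and 155.4 to 167.8 in controls. Urothelium markers were also highest there, at 847.5 CPM against 73.4 and 20.8 in the other knockouts and 31.1 to 73.9 in controls. All 8 fibroblast, 7 macrophage and 6 urothelium markers were detected, and their part in the *Angptl2* value was not tested.

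*Angptl1*, studied as an inhibitor of vessel growth, was barely detected. It had 23, 11 and 10 counts in controls 1 to 3, against 4, 14 and 4 in knockouts 1 to 3, none above 1.14 CPM. Knockout 2 lay within the control range and the other knockouts below it. The log2 fold change of -0.97 (SE 0.57) became -1.69 without knockout 2 and -0.62 without knockout 1, and it was -1.11 without control 2.

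*Angptl6*, linked to energy use, was also low and did not keep a direction. It had 34, 20 and 24 counts (1.69, 1.17 and 1.44 CPM) in controls 1 to 3 and 55, 19 and 15 counts (2.70, 0.952 and 1.15 CPM) in knockouts 1 to 3. Knockout 1 was above every control and the other knockouts below every control. Its log2 fold change was 0.16 (SE 0.48) with all libraries, 0.0278 without control 2 and -0.47 without knockout 1.

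*Angptl8*, listed as *Gm6484*, is a short family member without the fibrinogen-like domain that acts on lipoprotein lipase together with its relatives. It had 86, 30 and 65 counts in controls 1 to 3, against 68, 54 and 74 in knockouts 1 to 3, and the groups overlapped. Its log2 fold change of 0.23 (SE 0.45) was not called (edgeR, adjusted p 0.737), and it was -0.0819 without control 2. Like *Angptl7*, it lies inside a gene of the opposite strand, *Dock6*, which was at 82.3 to 98.3 CPM in controls and 113.2 to 123.9 in knockouts and was not called (edgeR, adjusted p 0.0694), although DESeq2 called it (adjusted p 0.0247). The surrounding genes of *Angptl2* and *Angptl1* were not called either, *Ralgps1* with a log2 fold change of -0.12 (SE 0.18) and *Ralgps2* with one of -0.72 (SE 0.36).

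Of the 5 members, all of which passed the filter on low counts, 1 (*Angptl7*) was called at an adjusted p under 0.05 (edgeR), where 17.2% of the 15171 genes tested were called and 6.64% were called lower. The groups did not overlap for that gene alone among the 5, against 46% of all genes tested. DESeq2's Wald test called *Angptl7* and no other member, where it called 32.3% of genes. Because *Angptl7* led to the choice of the family, nothing is read from the calls of either test. Without control 2 no member was called by edgeR, where 0% of the 15565 genes tested were called and 4270 genes had an unadjusted p under 0.05, and DESeq2 called 2706 genes.

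**Figure D3:**
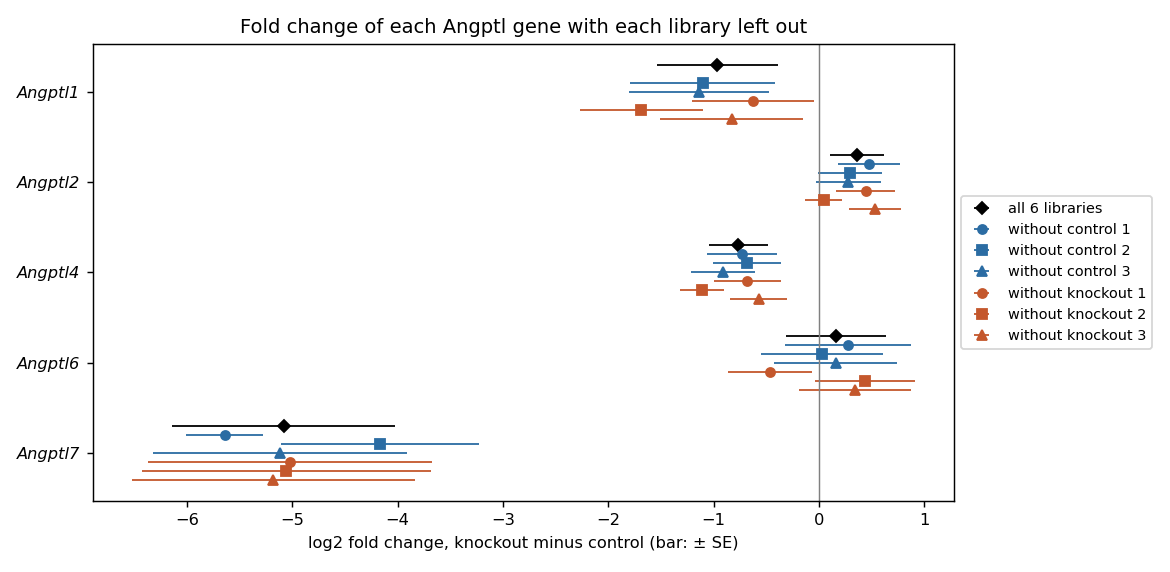
Log2 fold change (knockout minus control, with SE bars) of each member with all 6 libraries (black) and with each library left out in turn (blue, a control; orange, a knockout). *Angptl7* stays between -5.64 and -4.17, *Angptl4* between -1.11 and -0.57, and *Angptl6* crosses 0 without knockout 1. *Angptl1* was not tested without control 1.

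To compare the members with each other, CPM were divided by the summed length of each gene's exons in kilobases, from 1564 bases for *Angptl6* to 6286 for *Angptl2*. In controls the order by mean level per kilobase was *Angptl7* (23.0 ± 21.5), *Angptl4* (18.7 ± 3.30), *Angptl2* (9.94 ± 1.57), *Angptl6* (0.918 ± 0.165) and *Angptl1* (0.280 ± 0.106; CPM per kilobase, SD, n = 3). The ranges of *Angptl7* and *Angptl4* overlapped in controls, as did those of *Angptl7* and *Angptl2*, because control 1 held only 2.03 CPM per kilobase of *Angptl7*. *Angptl7* came first only with control 2, which held 44.9 CPM per kilobase. Without that library, a setting chosen after seeing the data, *Angptl4* led with 17.5, before *Angptl7* with 12.1 and *Angptl2* with 10.3 (n = 2 controls). In knockouts the order was *Angptl2* (12.7 ± 4.37), *Angptl4* (10.97 ± 4.11), *Angptl6* (1.02 ± 0.611), *Angptl7* (0.682 ± 0.0875) and *Angptl1* (0.141 ± 0.0936). There the ranges of *Angptl2* and *Angptl4* overlapped, and those of *Angptl6* and *Angptl7* did. With the longest transcript as the length, *Angptl2* was at 17.6 CPM per kilobase in controls, and the order of the members was the same in both groups.

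The make-up of the family differed between the groups in the shares of *Angptl7* and *Angptl2*. Of the summed level per kilobase of the 5 members, the controls held 5.74%, 59.0% and 47.0% as *Angptl7* and the knockouts 2.68%, 1.87% and 4.14%. Control 1 was closer to the knockouts than to the other controls. *Angptl2* and *Angptl4* together made up most of the rest. *Angptl2* was at 12.0% to 33.2% in controls and 48.1% to 50.8% in knockouts, and *Angptl4* at 27.7% to 56.9% and 41.3% to 44.9%. Since these are shares of the same sum, a lower *Angptl7* raises the others, and the CPM of *Angptl2* itself overlapped between the groups. The sum itself was 35.4, 76.1 and 47.1 CPM per kilobase in controls 1 to 3, against 22.9, 34.8 and 18.9 in knockouts 1 to 3. All 3 knockouts lay below all 3 controls, but the sum includes *Angptl7*, whose counts chose the family. Without *Angptl7* the sum was 33.3, 31.2 and 24.97 in the controls and 22.3, 34.2 and 18.1 in the knockouts, and knockout 2 was then above every control.

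**Figure D4:**
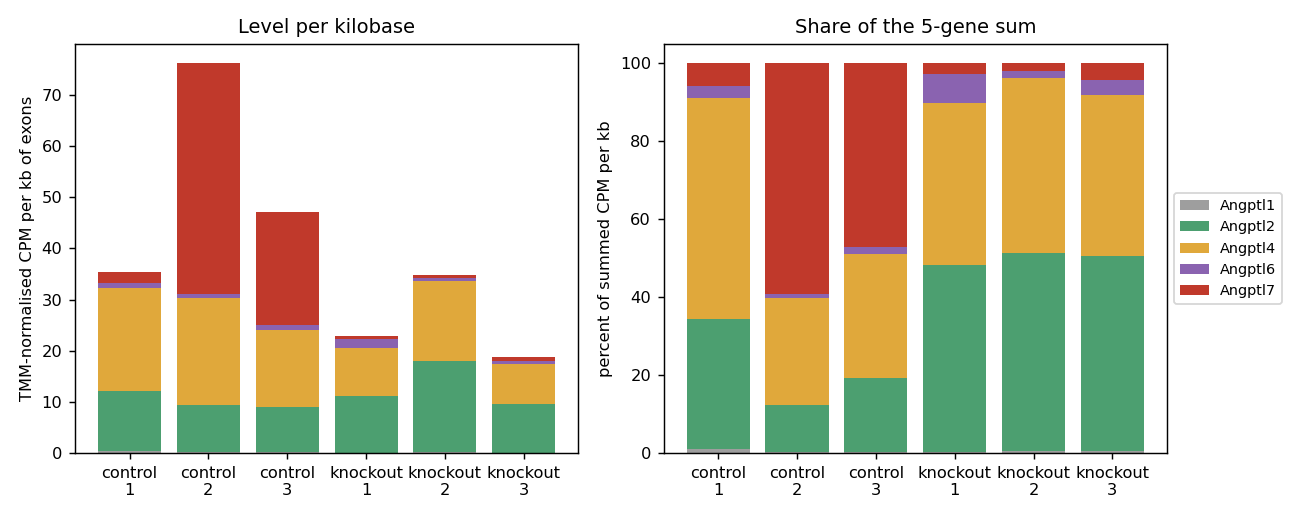
Summed level per kilobase of exons of the 5 members in each library (left, CPM per kilobase) and the share of each member in that sum (right, percent). *Angptl7* (red) fills 59.0% and 47.0% of the sum in controls 2 and 3, 5.74% in control 1 and at most 4.14% in a knockout.

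Over the 6 libraries, Pearson's r of log2 CPM between members ranged from -0.60 for *Angptl2* with *Angptl7* to 0.87 for *Angptl1* with *Angptl4*, as a description over libraries that differ in genotype and depth. *Angptl1* had only 4 to 23 counts in a library, so its values of r rest on few reads. The genes most like *Angptl7* among 15168 compared were *Gm5820* (r = 0.997), *Zfp697* (r = 0.994) and *Apobec2* (r = 0.993; n = 6 libraries), and 255 genes had an r over 0.9. Chosen for a high r, these 3 repeated the low value of control 1. All 3 were highest in control 2, the library with Y-linked transcripts. *Gm5820* was low, at 1.19, 5.23 and 3.36 CPM in controls 1 to 3 and at 0.752 to 0.785 in knockouts. *Zfp697* was at 25.4, 49.5 and 42.8 CPM in controls 1 to 3 and at 22.3 to 22.8 in knockouts. *Apobec2* was at 2.19, 5.28 and 3.84 CPM in controls 1 to 3 and at 1.28 to 1.45 in knockouts. The most like *Angptl4* were *Ate1* (r = 0.982), *Snora28* (r = 0.979) and *Gltscr1l* (r = 0.978), and the most like *Angptl2* were *Ddx10* (r = 0.996), *Pag1* (r = 0.989) and *Slc37a2* (r = 0.986). For *Angptl1* they were *Steap3* (r = 0.987), *Polr3d* (r = 0.979) and *Map3k5* (r = 0.978), and for *Angptl6* they were *Cacna2d2* (r = 0.981), *Evi5l* (r = 0.977) and *Rec8* (r = 0.968). For *Gm6484* they were *2810001G20Rik* (r = 0.987), *4933408B17Rik* (r = 0.985) and *Tmem180* (r = 0.980).

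Genes that act around the family were then compared between the groups. Of 84 such genes in the tables, *Gm6484* among them, 78 were tested. Of these, 15 were called, 8 higher and 7 lower in knockouts (edgeR's quasi-likelihood test), which is 19.2% beside 17.2% of all genes. Without control 2 edgeR called none of the 78 tested, with 20 at an unadjusted p under 0.05, whereas DESeq2 called 16. Over all genes tested the median log2 fold change was 0.0209. With library size alone it was higher by 0.27, and 15 of these genes were called higher and 4 lower.

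Of the receptors reported for ANGPTL proteins, 4 of 9 were called, all of them higher (10.6% of all genes were called higher), and the median log2 fold change was 1.61. *Itga5*, the integrin chain that pairs with *Itgb1* in the fibronectin receptor and binds ANGPTL2, rose from 19.3, 14.5 and 17.5 CPM in controls to 38.8, 59.1 and 66.9 in knockouts (log2 fold change 1.68, SE 0.23; edgeR, adjusted p 0.0271). Its groups lay well apart. The immune inhibitory receptors *Lilrb4a* and *Pirb* rose with log2 fold changes of 2.79 (SE 0.58) and 2.70 (SE 0.49), although *Pirb* has close gene copies, so its counts are uncertain. The innate immune receptor *Tlr4* rose by 1.61 (SE 0.40) on the log2 scale. These 3 genes are expressed by myeloid cells, and 6 of the 7 macrophage markers were called higher as well. Beside *Itga5*, 3 of the 8 fibroblast markers and 4 of the 6 smooth muscle markers were called higher, the latter with sums of 272, 911.9 and 2518 CPM in knockouts 1 to 3. The part of these cells in the receptor values was not tested. *Itgb1* had a log2 fold change of 0.64 and *Sdc4*, a cell surface proteoglycan, one of -0.25, neither called. Without control 2 the 4 called genes had log2 fold changes of 1.57, 2.66, 2.47 and 1.57 in the order named.

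On the lipase side, 1 of 11 tested genes was called by edgeR, where 17.2% of all genes were, and 3 were called by DESeq2, where 32.3% of all genes were. Without knockout 1 edgeR called 5 of the 11, where it called 5332 of the 15494 genes tested. The median log2 fold change of the list was -0.10 (0.16 with library size alone). *Lpl*, the lipoprotein lipase that ANGPTL4 inhibits, fell from 537.2, 950.04 and 488.8 CPM in controls 1 to 3 to 275.7, 348.4 and 273.8 in knockouts 1 to 3. Every knockout was below every control, and the log2 fold change was -1.14 (SE 0.30; edgeR, adjusted p 0.0458). It was -0.79 without control 2, the highest control. *Cd36*, a fatty acid carrier, was also highest in control 2, with 594.4 CPM against 199 and 118.3 in the other controls and 55.9 to 100.8 in knockouts, so that the groups did not overlap. Its log2 fold change of -1.90 (SE 0.60) was not called by edgeR (adjusted p 0.0659) but was called by DESeq2 (adjusted p 0.00495), and it was -0.97 without control 2. The third gene that DESeq2 called was *Lrp1*, a receptor that takes up lipoprotein remnants, which was higher on average, with overlapping groups. Its log2 fold change was 1.27 with an SE of 0.51 (adjusted p 0.117 by edgeR and 0.0459 by DESeq2), and 1.39 without control 2. The summed nephron markers were lower in knockouts, as given above, with *Lrp2* and *Slc34a1* called lower, and their part in the values of *Lpl* and *Cd36* was not tested. *Gpihbp1*, the endothelial anchor of lipoprotein lipase, had a log2 fold change of 0.70 (SE 0.38; 0.83 without control 2) and was not called.

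PPAR receptors and targets, the program best known to drive *Angptl4*, had a median log2 fold change of -0.64, with 3 of 14 genes called and all 3 lower (6.64% of all genes were called lower). *Ppara*, the receptor of this class in oxidising tissues, fell from 151.2, 132.6 and 204.6 CPM in controls to 71.6, 53.2 and 29.3 in knockouts (log2 fold change -1.66, SE 0.34; edgeR, adjusted p 0.0317). *Acadm*, an enzyme of fatty acid oxidation, fell by 2.08 (SE 0.43) on the log2 scale. The coactivator *Ppargc1a* fell by 1.03 (SE 0.28). Without control 2 the values of *Ppara*, *Acadm* and *Ppargc1a* were -1.80, -1.89 and -1.04. The summed level of the nephron markers was lower in knockouts too, as given above, with 2 of the 9 called lower, and their part in these values was not tested. *Ppard*, another receptor of the class, had a log2 fold change of 0.18 and was not called.

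Of 15 genes of the hypoxia response, another known input to *Angptl4*, 1 was called higher and 1 lower, where 17.2% of all genes were called in either direction, and the median log2 fold change was -0.0612 (0.19 with library size alone). *Ddit4*, an inhibitor of mTOR signalling induced by stress, rose by 1.22 (SE 0.23), and *Car9*, a carbonic anhydrase induced by hypoxia, fell by 1.79 (SE 0.28) on the log2 scale. Without control 2 the values were 1.20 and -1.52. Of 9 glucocorticoid genes, 1 was called, where 17.2% of all genes were, and the median log2 fold change was -0.24 (0.042 with library size alone). The called gene was *Klf9*, a target of the receptor, which fell by 0.83 (SE 0.22; edgeR, adjusted p 0.0463) and was at -0.67 without control 2. The receptor *Nr3c1* had a log2 fold change of -0.24 (SE 0.18).

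Among the angiopoietins, their Tie receptors and the Tie-associated phosphatase *Ptprb*, 1 of 6 genes was called, where 17.2% of all genes were, and the median log2 fold change was 0.28. *Angpt4* rose from 4, 2 and 4 counts in controls to 17, 36 and 65 in knockouts (log2 fold change 3.70, SE 0.79; edgeR, adjusted p 0.0326), although it stayed below 5 CPM, and its log2 fold change was 3.47 without control 2. The other 5 genes were not called, with log2 fold changes of -0.0316 for *Angpt1*, -0.58 for *Angpt2*, -0.0322 for the receptor *Tek*, 0.60 for the receptor *Tie1* and 0.66 for *Ptprb*. Other secreted proteins with a fibrinogen-like domain had a median log2 fold change of 1.55, with 2 of 9 called, both higher, where 10.6% of all genes were called higher. These were *Mfap4*, a protein of elastic fibres (3.59, SE 0.85), and *Fgl2*, a product of immune and endothelial cells (2.38, SE 0.62). Both were highest in knockout 2, at 59.8 CPM for *Mfap4* and 86.1 CPM for *Fgl2*. Without control 2 the values were 3.47 and 2.15. Knockout 2 also had the highest fibroblast, macrophage and urothelium marker sums. Of the 6 smooth muscle markers, 4 were called higher, with sums of 155.7 to 214.2 CPM in controls and 272 to 2518 in knockouts. The part of these cells was not tested.

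**Figure D5:**
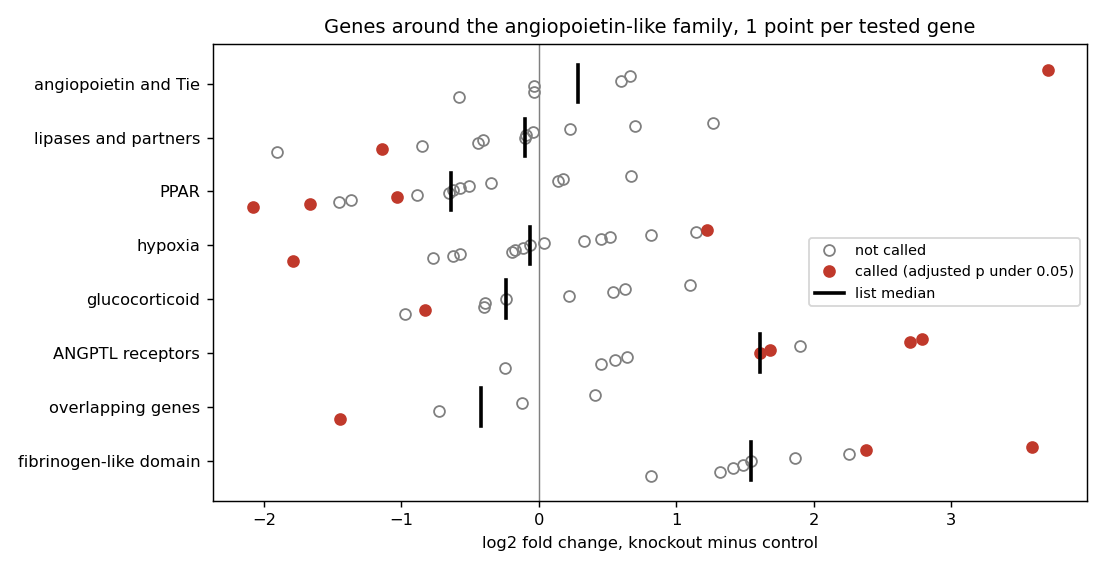
Log2 fold change (knockout minus control) of each tested gene in 8 lists around the family, with called genes filled and the list median as a bar. The ANGPTL receptors and the fibrinogen-like genes lie mostly to the right (medians 1.61 and 1.55), and the PPAR genes mostly to the left (median -0.64).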

How the data were processed

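Whole-kidney poly-A RNA was sequenced from 6 libraries, and the titles gave each sample its group and number. The authors deposited raw counts per gene, with the libraries of each group in 1 table. The sources used here give CASAVA 1.8.2, trimming with Trimmomatic, alignment to mm9 with TopHat2 2.0.11 and counting with HTSeq. They do not give the annotation or the strand setting, and the published methods do not name the genome build. Genes were kept by filterByExpr (minimum count 10, minimum total 15; 15171 genes), normalised by TMM and tested with edgeR 4.0.16 (glmQLFit with the legacy option, glmQLFTest; R 4.3.3) over all 6 libraries with no covariate. Benjamini-Hochberg adjustment ran over all genes tested, and a call is an adjusted p under 0.05. The SE is the size of the log2 fold change divided by the square root of F. Log2 CPM used a prior count of 2. DESeq2 1.42.0 was an alternative. Coordinates and lengths are from GENCODE M1 (mm9).

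The members and gene lists were chosen with earlier results of these data known. Named are the members, the genes around them, from each list up to 4 called genes with the largest change, and the 3 genes most like each member by Pearson's r. *Cd36*, *Gpihbp1*, *Itgb1*, *Sdc4*, *Ppard*, *Nr3c1*, *Angpt1*, *Angpt2*, *Tek*, *Tie1*, *Ptprb*, *Lrp1*, *Lrp2* and *Slc34a1* were added after their values were seen. So were *Umod*, *Slc12a1* and *Slc12a3*. Some planned genes are not reported here. Nothing states that the libraries came from separate litters or preparations, so p-values measure the spread between these samples. The tests were tested on simulated data. The deviations of same-numbered libraries from the means of their groups correlated at -0.13, 0.0116 and 0.21 for numbers 1, 2 and 3, and the libraries were therefore not treated as pairs.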

Additional observations from a re-analysis of the deposited data

How the results depend on the processing

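The number of calls was within 1.5 times 2612, and that among the 84 surrounding genes within 1.5 times 15, with DESeq2 size factors, library size alone, a minimum of 10 counts per library, no filter and the newer quasi-likelihood version of edgeR. With library size alone 81.8% of calls were higher, against 61.4% with TMM. DESeq2's Wald test called 4882 genes and 28 of the surrounding genes. Leaving out 1 library at a time gave from 0 to 5332 calls and from 0 to 30 surrounding genes. Without any 1 control edgeR made 0 calls, with 4270 to 4823 genes at an unadjusted p under 0.05 and 2706 to 3526 called by DESeq2. There were 5332 calls without knockout 1, 73 without knockout 2 and 2 without knockout 3. Without knockout 1 the calls were 5 of 11 lipase, 7 of 14 PPAR, 7 of 9 receptor and 4 of 15 hypoxia genes. They were 5 of 9 fibrinogen-like, 0 of 9 glucocorticoid and 1 of 6 angiopoietin and Tie genes. A covariate made of *Xist* over Y-linked counts gave 0 calls and 0 surrounding genes (4221 at an unadjusted p under 0.05). The replicate number as a block gave 0 and 0 (5432), with a log2 fold change of -4.35 for *Angptl7*, and the numbers did not pair the libraries. Fewer samples or degrees of freedom are part of these fits, but leaving out knockout 1 raised the number, and the cause was not tested.

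The log2 fold changes of *Angptl1*, *Angptl4* and *Angptl7* were negative, and that of *Angptl2* positive, in every fit that tested them. *Angptl7* ranged from -5.64 without control 1 to -4.17 without control 2. *Angptl1* ranged from -1.69 without knockout 2 to -0.62, and could not be tested without control 1 or with the minimum of 10 counts. *Angptl2* ranged from 0.0432 to 0.53 and *Angptl4* from -1.11 to -0.57 with 1 library left out. *Angptl6* ranged from -0.47 without knockout 1 to 0.44 without knockout 2. At 22 to 28 counts in the knockouts *Angptl7* was well above 0, whereas *Angptl1* had at most 23 counts in a library, which limits the precision of its fold change.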
